A study of Cricetiscus sungorus with 12 samples.

Results

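Hypothalamic mRNA of Djungarian hamsters in winter torpor was set against that of summer-acclimated, normothermic hamsters. The contrast was made of 8 of the 12 libraries of the series, by their labels: 4 from the hypothermic short photoperiod group (SP-HT) and 4 from the normothermic long photoperiod group (LP-NT). It measures season and torpor together. The 4 libraries of normothermic short photoperiod hamsters (SP-NT) were used to see which differences were already present without torpor on the sampling day. All directions follow the sample labels, and SP-HT stands throughout for the libraries labelled so.

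The animals were adults from an indoor colony. LP-NT hamsters (2 males, 2 females) stayed under 16 h of light and 8 h of darkness and carried no transmitter. SP-HT hamsters (3 males, 1 female) and SP-NT hamsters (2 males, 2 females) had been moved to 8 h of light and 16 h of darkness. They carried an implanted temperature transmitter, and all but 1 SP-NT hamster had lost body mass. SP-HT hamsters were on average older at sampling than LP-NT and SP-NT hamsters, whose mean ages were similar. Each SP-HT and SP-NT hamster had shown torpor before. The SP-HT animals were taken in spontaneous daily torpor and the SP-NT animals on a day without it. All were sampled at about Zeitgeber time 4 h, that is 4 h after lights on, and were perfused. Each library came from the hypothalamic tissue of 1 hamster. Day length, torpor, surgery, body mass and age therefore cannot be told apart in SP-HT against LP-NT, and SP-NT shares day length and surgery with SP-HT. Torpor and age cannot be told apart in SP-HT against SP-NT. By label, the sex ratio of SP-HT also differed from that of LP-NT and of SP-NT.

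Djungarian hamsters read the season from day length. Nocturnal melatonin acts on the pars tuberalis of the pituitary, whose thyrotropin, a dimer of Cga and Tshb, sets the deiodinases Dio2 and Dio3 in tanycytes, the glia that line the floor of a brain ventricle. After weeks of short days the animals become smaller, reproductively inactive and able to enter daily torpor, a bout of lowered metabolism and body temperature during the resting phase.

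The libraries held similar amounts of data. Expected counts summed to between 21732663 and 22710560 in LP-NT, 20204979 and 23018123 in SP-HT, and 22860110 and 24186918 in SP-NT. The difference in mean total between SP-HT and LP-NT was -433354 counts (two-sided exact permutation test, p = 0.6). LP-NT replicate 01 stood apart from the other libraries. On the first principal component of the 500 most variable genes it lay at 12.8, and the other 7 libraries lay between -3.44 and 0.84. The second component ran from 7.50 in a female LP-NT hamster to -5.20 in a male SP-HT hamster, and within each group the females had the highest scores. Records were sought with at least 100 counts in the 5 males and at most 10 in the 3 females of these 8 libraries. The 3 found had at least 181 and at most 5. They also had at least 163 counts in SP-NT replicate 38, but at most 1 in replicate 19, although its label also reads male. For the genes described, the effect of leaving out these 2 libraries is given where it ended a call or turned a direction.

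**Figure D1:**
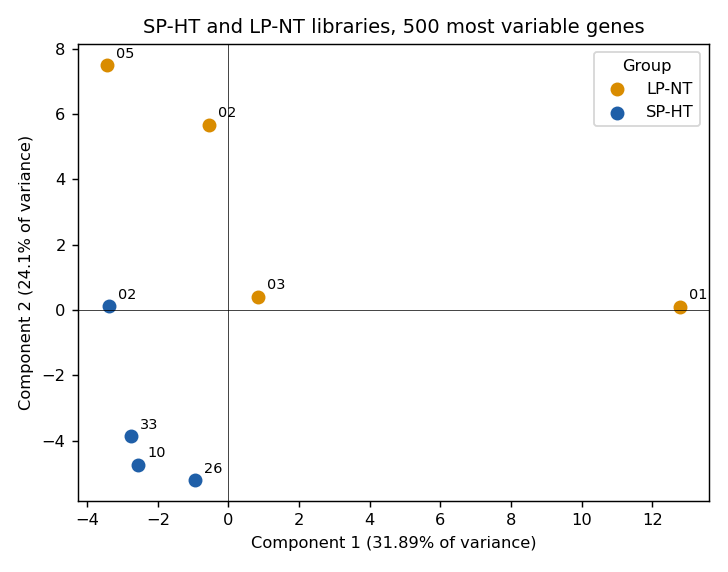
Scores of the 8 SP-HT and LP-NT libraries on the first (31.89% of variance) and second (24.1%) principal components of variance-stabilised counts; numbers beside the points are replicate numbers. LP-NT replicate 01 lies alone at 12.8 on the first component, and SP-HT replicate 02 lies close to LP-NT replicates 01 and 03 on the second.

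The files list mouse GeneIDs without names. Names were attached only where the study prints a name with test values that were found in exactly 1 record, which gave 67 names, and 4 further records could be named only as members of a pair. The naming used the sizes of the photoperiod and torpor differences, so the size of a named record's change is not independent evidence. Named neuropeptide genes were detected in all 8 libraries. Avp ranged from 81.8 to 265 CPM (expected counts scaled to the library's TMM-adjusted total) and Trh from 30.9 to 63.3 CPM. Sst ranged from 37.1 to 53.9 CPM, Cartpt from 39.2 to 82.0 CPM and Vip from 6.34 to 15.8 CPM. No marker listed for hypothalamus, thalamus, striatum or cortex had a name, so the tissue label was not tested. The named record closest to a body temperature marker was Rbm3-ps, which carries the name of a gene induced by cold. It averaged 3.10 CPM in SP-HT, 14.9 CPM in LP-NT and 15.1 CPM in SP-NT, which runs against the torpor label if the record behaves as Rbm3 does. A record of Rbm3 itself was not analysed here.

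The printed torpor signs of all 59 matched names with such a value were opposite to SP-HT over SP-NT as labelled. The torpor sign was not used in matching. The photoperiod sign was, so its match to SP-NT over LP-NT is no separate evidence. Whether the printed torpor contrast was reversed or the labels of SP-HT and SP-NT were exchanged was not tested. In the study's list of animals, hamsters 10, 26 and 33 are torpid males and hamster 02 is a torpid female. The records that separate the sexes were high in SP-HT replicates 10, 26 and 33 and low in 02. That pattern was part of their choice. Among the SP-NT libraries they were high in replicate 38 alone. Every difference below that sets SP-HT apart from SP-NT therefore rests on the labels. The named records with a printed torpor value have the opposite direction in print. SP-HT against LP-NT and its split by photoperiod rest on the labels too. With exchanged labels, SP-HT against LP-NT would measure photoperiod alone, and SP-NT against LP-NT would measure season and torpor together.

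SP-HT differed from LP-NT in 221 of 16157 genes tested (1.37%) at an adjusted p (padj) under 0.05 in edgeR's quasi-likelihood test. All padj values below are Benjamini-Hochberg values of this test over all genes. Of these, 57 genes were higher in SP-HT (0.353% of genes tested) and 164 were lower (1.02%). DESeq2 called 706 genes (4.37%), 243 higher and 463 lower, with 218 of the 221 among them. The share of higher calls was 25.8% in edgeR and 39.0% in DESeq2 with effective lengths, where 623 genes were called. The 4 SP-HT values lay wholly above or wholly below the 4 LP-NT values for all 221 called genes. The same held for 10.6% of all genes tested.

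Most differences were moderate. The median size of log2(FC) among the 221 genes was 0.66, 60 genes passed a size of 1, and 15 passed 2. Called genes that were higher had a median size of 1.00, and those that were lower 0.62. The genes that were higher were less abundant, with a median level of 6.21 CPM against 15.7 CPM for the lower ones and 20.7 CPM for all genes tested. Calls made up 0.623% of genes under 1 CPM, 1.86% from 1 to 10 CPM, 1.70% from 10 to 100 CPM and 0.282% above 100 CPM, and only 7 genes of the most abundant class were called. Scaling by TMM centres the fold changes, so a shift common to all genes could not be seen.

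The number of calls depended on which libraries were used. Without LP-NT replicate 01, 200 genes were called and 157 of them were among the 221. Without any other library the number fell to between 55 and 87. With sex as a covariate 227 genes were called, 175 of them among the 221.

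**Figure D2:**
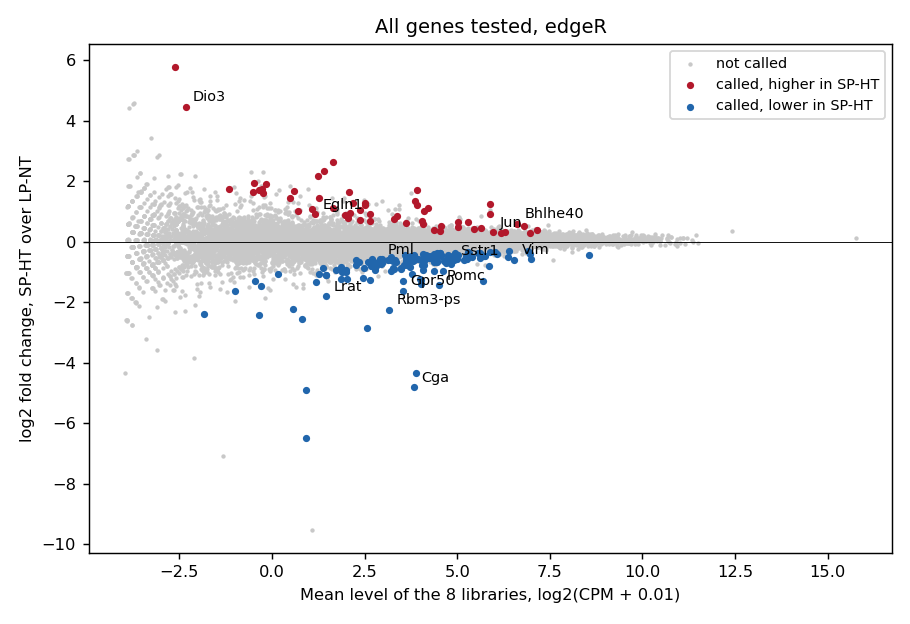
log2 fold change of SP-HT over LP-NT against the mean level of the 8 libraries, log2(CPM + 0.01), for all 16157 genes tested; red and blue points are the 57 genes called higher and 164 called lower in SP-HT, and called genes with a resolved name are written beside their points. Called genes lie mostly below 0, and Cga stands among the strongest falls.

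Of the 221 genes, 6 already differed by photoperiod, that is, were called in the same direction in SP-NT against LP-NT, where 6 of 16199 genes were called (0.037%) and 784 had an unadjusted p under 0.05. The other 215 were not called there. Leaving out SP-NT replicate 19 again left 6 calls, and leaving out LP-NT replicate 01 gave 8. DESeq2 called 33 genes for photoperiod, 23 of which it also called in SP-HT against LP-NT in the same direction. A call in one comparison and not in the other does not show that the effects differ, so SP-HT was also tested against SP-NT for the named genes, a comparison in which 389 genes were called (2.4%). Without SP-NT replicate 19 that number was 124, and of the 9 named records called there Per2, Pml, Glut3 and Egln1 missed the threshold (padj = 0.0588, 0.0564, 0.113 and 0.0841). The other 5 remained called.

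The genes that already differed by photoperiod included genes of the pars tuberalis and of tanycytes. Cga, the common alpha subunit of the glycoprotein hormones, stood at 45.5, 20.9, 16.2 and 26.7 CPM in LP-NT replicates 01, 02, 03 and 05. It was at 1.93, 0.675, 0.846 and 0.343 CPM in SP-HT and at 1.07, 0.916, 0.734 and 1.82 CPM in SP-NT. Every short photoperiod value lay far below every LP-NT value, in SP-HT and SP-NT alike. Cga fell in SP-HT with log2(FC) = -4.81 ± 0.44 (SE, padj = 0.00124), a 27.98-fold difference. In SP-NT it fell with log2(FC) = -4.58 ± 0.38 (padj = 0.00111), and SP-HT and SP-NT differed by -0.24 (padj = 0.823).

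A pair of records, GeneIDs 60531 (more abundant) and 22094 (less abundant), carried the names Npvf and Tshb. The printed values could not tell which was which. Tshb encodes the thyrotropin beta subunit, and Npvf encodes the RFamide peptides that act on the reproductive axis. The more abundant record was at 28.7, 29.9, 24.95 and 29.1 CPM in LP-NT and at 1.23, 1.98, 0.846 and 1.42 CPM in SP-HT. It had the smallest p of all genes in the contrast (log2(FC) = -4.36 ± 0.19, padj = 2.6e-06) and in SP-NT was at 0.862 to 3.58 CPM (log2(FC) = -4.02 ± 0.33, padj = 0.00111). The less abundant record ranged from 1.64 to 5.11 CPM in LP-NT and from 0 to 0.350 CPM in SP-HT, where 2 of 4 libraries had no count (log2(FC) = -4.91 ± 0.65, padj = 0.00919). Its log2(FC) ranged from -4.51 to -6.59 with 1 library left out, the largest without SP-HT replicate 02. Its SP-NT values, 0.167 to 0.370 CPM, were also below every LP-NT value (padj = 0.00576). Both names therefore belong to records that fell in SP-HT and had already fallen in SP-NT.

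Cga, Tshb and Pomc are also made by the pituitary, and LP-NT replicate 01 had the highest Cga and Pomc values of all libraries. How much pituitary tissue each sample held was not tested. Without this library the log2(FC) of Cga was -4.45 (padj = 0.000775). In whole tissue, fewer cells of a type and less RNA per cell cannot be told apart.

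Gpr50, an orphan relative of the melatonin receptors that is expressed in tanycytes, had LP-NT values of 17.6, 17.8, 16.3 and 18.2 CPM. In SP-HT it was at 7.44, 4.63, 6.81 and 3.73 CPM and in SP-NT at 5.50, 4.70, 4.92 and 4.48 CPM. The short photoperiod groups overlapped one another and were separate from LP-NT, with a wider spread in SP-HT (SD 1.76 CPM) than in SP-NT (0.44 CPM). The log2(FC) was -1.62 ± 0.19 in SP-HT (padj = 0.00768) and -1.84 ± 0.10 in SP-NT (padj = 4.21e-05).

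Lrat, lecithin retinol acyltransferase, which esterifies retinol for storage, followed the same order. It stood at 4.30, 4.38, 3.37 and 4.98 CPM in LP-NT and at 1.01, 0.916, 1.88 and 1.03 CPM in SP-HT, with replicate 26 above the other SP-HT animals. Lrat fell in SP-HT (log2(FC) = -1.81 ± 0.25, padj = 0.0102) and in SP-NT (log2(FC) = -2.002 ± 0.185, padj = 0.00239). SP-HT and SP-NT differed by 0.19 for Lrat (padj = 0.758) and by 0.21 for Gpr50 (padj = 0.636). The remaining gene of the 6, without a name, was higher under short photoperiod. Its values were 11.5 to 14.6 CPM in LP-NT, 22.1 to 24.4 CPM in SP-NT and 15.9 to 24.9 CPM in SP-HT (log2(FC) = 0.68 ± 0.14, padj = 0.0464). Cga, Gpr50, Lrat and both records of the Npvf/Tshb pair remained called without any one of the 8 libraries.

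**Figure D3:**
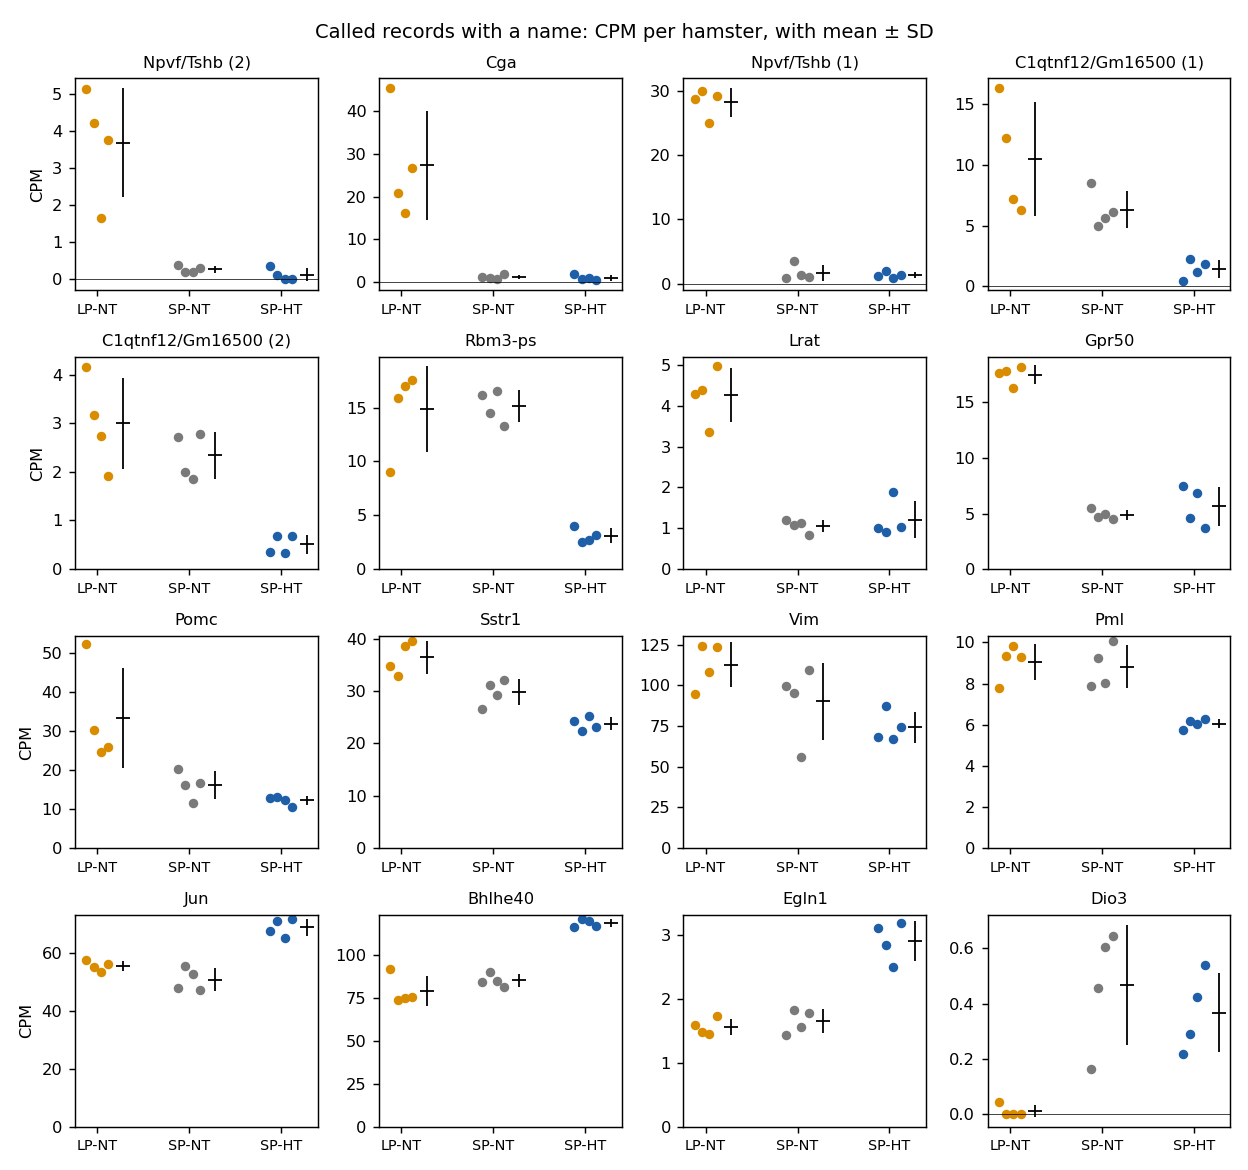
CPM of the 16 called records with a name, 1 point per hamster in LP-NT, SP-NT and SP-HT, with the group mean ± SD beside the points; (1) and (2) mark the more and the less abundant record of a pair, and each axis has its own range. Cga, Gpr50, Lrat and the Npvf/Tshb records are low in both short photoperiod groups, whereas Rbm3-ps, Bhlhe40, Egln1, Jun and Pml stand apart in SP-HT alone.

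The thyroid hormone enzymes of tanycytes were measured at low counts. Dio3, which inactivates thyroid hormone, had 1 count in all 4 LP-NT libraries together, 31 counts in SP-HT and 45 in SP-NT. Per library it was at 0.0453 CPM in LP-NT replicate 01 and 0 in the others, against 0.219, 0.289, 0.423 and 0.539 CPM in SP-HT. The ratio of SP-HT to LP-NT was 31.6, with an exact 95% interval of 5.27 to 1289 that covers counting error only. Dio3 was called in SP-HT (padj = 0.0263) but not in SP-NT (padj = 0.180), although the SP-NT ratio was 42.0 (exact interval 7.17 to 1696). The study's own DESeq2 test called Dio3 higher in SP-NT than in LP-NT. SP-HT and SP-NT differed with padj = 0.720. The SP-HT call was lost without 6 of the 8 libraries, with padj up to 0.0778, and it remained without LP-NT replicate 01 or SP-HT replicate 02.

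Dio2, which activates thyroid hormone, was at 7.24, 7.77, 8.29 and 5.30 CPM in LP-NT and 6.04, 4.58, 5.22 and 4.66 CPM in SP-HT. The groups overlapped through LP-NT replicate 05, and the difference did not pass the test (log2(FC) = -0.47 ± 0.17, padj = 0.207). Of the 10 named genes on the list of pars tuberalis and thyroid hormone conversion, 1 rose (Dio3) and 1 fell (Cga), against 0.353% higher and 1.02% lower over all genes tested, and the median log2(FC) was -0.03. The receptor genes Tshr, Trhr, Thra and Thrb, the transporter Mct8, the peptide gene Trh and the enzyme Dio1 had padj values from 0.524 to 0.994.

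Among genes of appetite and energy balance, Pomc was the named gene that changed. It encodes pro-opiomelanocortin, the precursor of the satiety peptide alpha-MSH. Pomc was at 52.4, 30.3, 24.8 and 25.9 CPM in LP-NT, at 12.9, 13.1, 12.2 and 10.6 CPM in SP-HT and at 20.3, 16.2, 11.4 and 16.7 CPM in SP-NT. Each SP-HT value lay below each LP-NT value, and SP-NT lay between them while overlapping SP-HT. Pomc fell in SP-HT with log2(FC) = -1.44 ± 0.21 (padj = 0.0128), or -1.14 (padj = 0.00133) without LP-NT replicate 01, its highest library. The fall missed the threshold without SP-HT replicate 26 (padj = 0.0555) or 33 (padj = 0.0570). In SP-NT the log2(FC) was -1.05 ± 0.25 (padj = 0.643). Every SP-NT value lay below every LP-NT value, and the study's own DESeq2 test called Pomc lower in SP-NT. SP-HT and SP-NT differed by -0.41 (padj = 0.186), so the part of the Pomc difference that separates SP-HT from SP-NT was not resolved.

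Several receptors of the same circuit were on average lower without passing the test. Mc4r, the melanocortin receptor through which alpha-MSH limits feeding, was at 3.94, 2.65, 2.41 and 3.20 CPM in LP-NT and 1.88, 1.302, 1.27 and 1.81 CPM in SP-HT (log2(FC) = -0.95 ± 0.22, padj = 0.0691). Npy1r, a receptor for neuropeptide Y, was at 17.6 to 19.6 CPM in LP-NT and 13.2 to 15.1 CPM in SP-HT (log2(FC) = -0.40 ± 0.09, padj = 0.0529). Neither gene's groups overlapped. The other melanocortin receptor, Mc3r, was at 4.20 to 5.02 CPM against 3.09 to 3.98 CPM (padj = 0.332), and Npy2r overlapped between groups (padj = 0.274).

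Npy, which promotes feeding, took another order. It was at 20.1, 20.9, 16.6 and 18.8 CPM in LP-NT, at 16.6, 14.2, 18.7 and 22.7 CPM in SP-HT and at 11.3, 11.9, 10.2 and 16.3 CPM in SP-NT. SP-HT overlapped LP-NT (log2(FC) = -0.07 ± 0.14, padj = 0.852, or 0.03 without SP-HT replicate 10), whereas all SP-NT values lay below all LP-NT values (log2(FC) = -0.62 ± 0.14, padj = 0.643). SP-HT exceeded SP-NT by 0.53 on the log2 scale (padj = 0.125), so none of the Npy differences passed the test. Of the 10 named genes of this list, 0 rose and 1 fell (edgeR), against 0.353% higher and 1.02% lower over all genes tested, and the median log2(FC) was -0.34. At an unadjusted p under 0.05, 4 were lower, namely Pomc, Mc4r, Npy1r and Npy2r. Over all genes tested 15.1% had such a p, 8.85% with a lower level. DESeq2 called Pomc, Mc4r and Npy1r. Cartpt, Lepr, Insr and Qrfpr had padj values from 0.389 to 0.773.

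The somatostatin system restrains growth hormone release. Sst itself was at 37.1 to 53.9 CPM in LP-NT and 41.2 to 48.6 CPM in SP-HT (padj = 0.858). Sstr1, one of its receptors, was at 34.8, 32.9, 38.6 and 39.7 CPM in LP-NT and at 24.3, 22.4, 25.3 and 23.2 CPM in SP-HT. SP-NT, at 26.6, 31.3, 29.2 and 32.2 CPM, lay between the groups and overlapped neither. Sstr1 fell in SP-HT with log2(FC) = -0.61 ± 0.08 (padj = 0.0102) and remained called without any one library. The SP-NT step was -0.29 ± 0.09 (padj = 0.913) and the step from SP-NT to SP-HT was -0.33 (padj = 0.0540), so neither part passed the test by itself.

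Sstr2 was at 13.7 to 16.5 CPM in LP-NT and 11.3 to 12.4 CPM in SP-HT, without overlap (log2(FC) = -0.34 ± 0.10, padj = 0.125), and DESeq2 called it. Sstr3, Sstr4 and Sstr5 overlapped between the groups, with padj from 0.456 to 0.782.

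**Figure D4:**
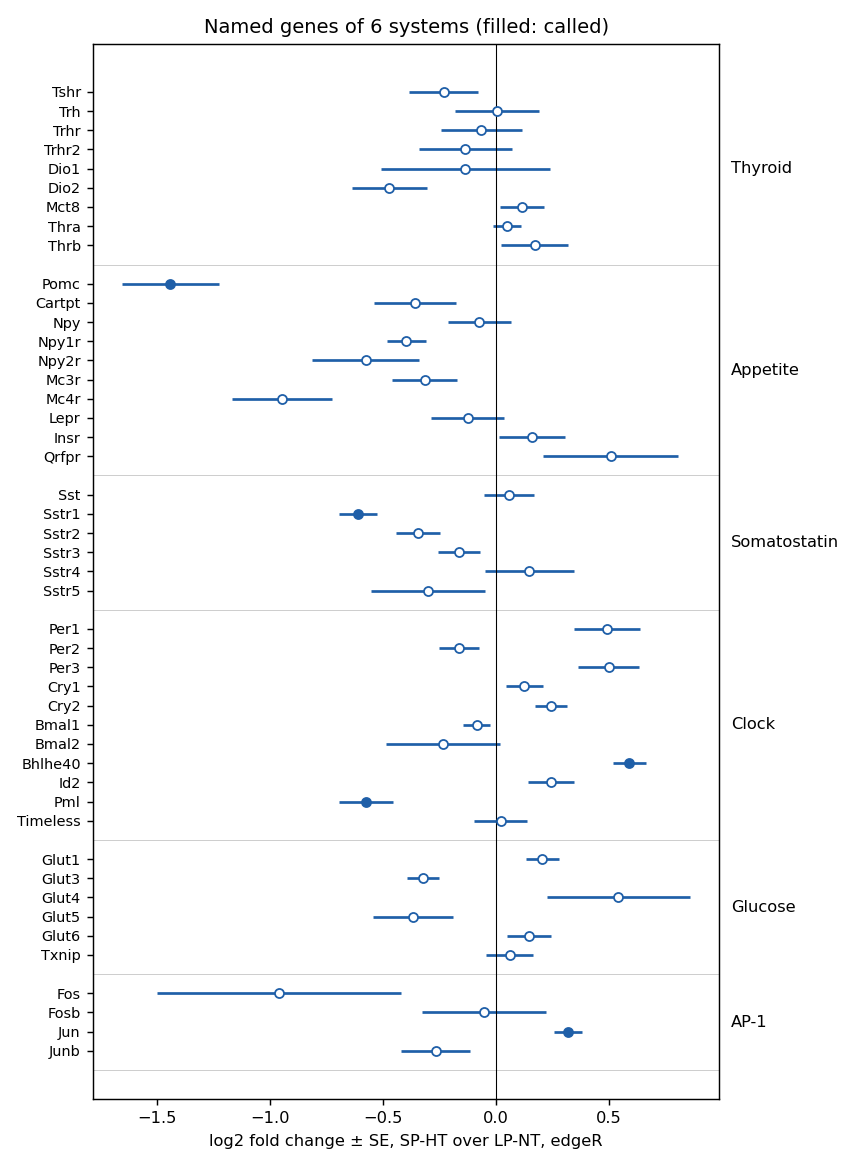
log2 fold change ± SE of SP-HT over LP-NT for named genes of 6 systems; filled points passed the test. Pomc and Sstr1 are the called genes of the appetite and somatostatin systems, and the clock group holds Bhlhe40 to the right and Pml to the left of 0.

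Among the named genes on the clock list only Bhlhe40 was called. All hamsters were sampled at the same time of day, so the course of the clock was not measured. Bhlhe40, a transcriptional repressor that responds to the clock and to other stimuli, was at 92.0, 73.9, 75.1 and 75.2 CPM in LP-NT and at 116, 121, 120 and 117 CPM in SP-HT. SP-NT values were 81.3 to 90.3 CPM, below that of LP-NT replicate 01 and above those of the other 3 LP-NT libraries. Bhlhe40 rose with log2(FC) = 0.59 ± 0.07 (padj = 0.00792) and remained called without any one library. Its SP-NT difference was 0.10 ± 0.08 (padj = 0.913), and SP-HT exceeded SP-NT by 0.47 (padj = 0.00214). Of the 8 named genes on the clock list, 1 rose and 0 fell, against 0.353% higher and 1.02% lower over all genes tested, and the median log2(FC) was 0.18.

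The Period and Cryptochrome genes, which close the clock's negative loop, did not pass. Per1 was at 39.3 to 63.2 CPM in LP-NT and 54.8 to 79.4 CPM in SP-HT (log2(FC) = 0.49 ± 0.15, padj = 0.141). Per3 was at 25.3 to 37.4 CPM in LP-NT, 33.9 to 47.0 CPM in SP-HT and 41.0 to 50.8 CPM in SP-NT (SP-HT log2(FC) = 0.50 ± 0.14, padj = 0.109). Its SP-NT values lay above every LP-NT value (log2(FC) = 0.62 ± 0.13, padj = 0.437), and the study's own DESeq2 test called that rise. Cry2 did not overlap, at 72.1 to 82.9 CPM against 86.4 to 99.6 CPM (log2(FC) = 0.24 ± 0.07, padj = 0.125). Per2 was at 36.3 to 40.5 CPM in LP-NT and 33.6, 36.5, 29.1 and 36.6 CPM in SP-HT (log2(FC) = -0.16 ± 0.09, padj = 0.411). With effective lengths as an offset the direction turned (log2(FC) = 0.12, padj = 0.662), and its effective length averaged 4422 bases in SP-HT against 5400 in LP-NT and 5241 in SP-NT. In SP-NT Per2 was at 41.5 to 53.1 CPM, above every SP-HT value, and that difference between SP-HT and SP-NT passed the test (log2(FC) = -0.49, padj = 0.0292). It did not pass with effective lengths as an offset (log2(FC) = -0.25, padj = 0.286) or without SP-NT replicate 19. Cry1, Bmal1 and Bmal2 had padj values from 0.524 to 0.718. DESeq2 called Per1, Per3 and Cry2 in SP-HT against LP-NT.

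Pml and Id2 are regulators that the study counts with the clock. Pml, the scaffold protein of nuclear bodies, was at 7.78, 9.33, 9.83 and 9.27 CPM in LP-NT and at 5.73, 6.17, 6.02 and 6.27 CPM in SP-HT. It fell with log2(FC) = -0.58 ± 0.12 (padj = 0.0468), close to the threshold. It lost the call without 7 of the 8 libraries (padj up to 0.136), with sex as a covariate (padj = 0.0652), with effective lengths as an offset (padj = 0.0905), with median-of-ratios size factors (padj = 0.0504) and with no filter (padj = 0.0526). It kept the call without LP-NT replicate 01 (padj = 0.0289). SP-NT values were 7.88 to 10.1 CPM and all above those of SP-HT. Id2, an inhibitor of basic helix-loop-helix factors, was at 16.9 to 18.4 CPM in LP-NT and 18.3 to 24.3 CPM in SP-HT (padj = 0.288).

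Jun and Fos, partners in the AP-1 transcription factor, did not behave alike across the libraries. Jun was at 57.6, 55.0, 53.2 and 56.0 CPM in LP-NT, 67.5, 70.9, 65.2 and 71.6 CPM in SP-HT and 47.2 to 55.3 CPM in SP-NT. Every SP-HT value was above every LP-NT and SP-NT value. Jun rose by a small amount (log2(FC) = 0.32 ± 0.06, padj = 0.0359), kept the call only without LP-NT replicate 01 among the 8 libraries left out, with padj up to 0.107, and lost it with effective lengths as an offset (padj = 0.0797).

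Fos, an immediate early gene that marks neuronal activity, was at 26.9, 8.90, 5.55 and 2.69 CPM in LP-NT and at 4.99, 6.03, 5.36 and 6.08 CPM in SP-HT. The difference did not pass (log2(FC) = -0.96 ± 0.54, padj = 0.439), and without LP-NT replicate 01 it was -0.03 (padj = 0.976). Of the 4 named immediate early genes 1 rose (Jun) and 0 fell, against 0.353% higher and 1.02% lower over all genes tested, and the median log2(FC) was -0.16. Junb was likewise highest in LP-NT replicate 01, at 29.3 CPM against 16.8 to 21.0 CPM in the other LP-NT libraries (log2(FC) = -0.27, padj = 0.454, or -0.08, padj = 0.730, without that library). Fosb had a log2(FC) of -0.05 (padj = 0.950), which turned to 0.11 (padj = 0.891) without LP-NT replicate 01.

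Several of the largest named differences also set SP-HT apart from SP-NT. The record named Rbm3-ps carries the name of Rbm3, an RNA-binding protein known for its induction by cold. It was at 9.005, 15.9, 17.0 and 17.5 CPM in LP-NT, 4.03, 2.51, 2.73 and 3.14 CPM in SP-HT and 13.3 to 16.6 CPM in SP-NT. All SP-HT values lay well below all LP-NT and SP-NT values. Rbm3-ps fell 4.77-fold (log2(FC) = -2.25 ± 0.23, padj = 0.00275), while its SP-NT difference was 0.02 ± 0.18 (padj = 0.984) and SP-HT against SP-NT gave -2.28 (padj = 0.000214). The fall rests on the labels, since the printed torpor direction is the opposite. Without LP-NT replicate 01, the lowest LP-NT library, the log2(FC) was -2.43. Effective lengths of this record averaged 2250 bases in SP-HT against 1941 bases in LP-NT and 1963 bases in SP-NT, so the mix of assembled transcripts behind the record also differed. 

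GeneIDs 100039350 (more abundant) and 67389 (less abundant) shared the names C1qtnf12 and Gm16500, and the printed values could not tell them apart either. C1qtnf12 belongs to the secreted C1q/TNF-related proteins. The more abundant record was at 16.3, 12.2, 7.15 and 6.30 CPM in LP-NT, 0.482, 2.22, 1.17 and 1.86 CPM in SP-HT and 4.995 to 8.50 CPM in SP-NT. The less abundant one was at 1.92 to 4.16, 0.329 to 0.686 and 1.86 to 2.78 CPM in the same order. Both were lower in every SP-HT library than in every LP-NT or SP-NT library. They fell in SP-HT with log2(FC) of -2.87 ± 0.42 (padj = 0.0117) and -2.54 ± 0.32 (padj = 0.00792), and against SP-NT with -2.14 (padj = 0.0129) and -2.20 (padj = 0.00535). In SP-NT the more abundant record gave -0.73 ± 0.29 (padj = 0.913, unadjusted p = 0.0305) and the other -0.36 ± 0.25 (padj = 0.913). The more abundant record missed the SP-HT threshold without SP-HT replicate 26 (padj = 0.0542).

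Egln1, the prolyl hydroxylase PHD2 that marks HIF factors for degradation when oxygen is present, had low counts. It was at 1.58, 1.48, 1.46 and 1.74 CPM in LP-NT, 3.11, 2.85, 2.49 and 3.19 CPM in SP-HT and 1.44 to 1.83 CPM in SP-NT. SP-HT was separate from both LP-NT and SP-NT, which overlapped. Egln1 rose with log2(FC) = 0.90 ± 0.17 (padj = 0.0331), but the call was lost without each of the 8 libraries in turn (padj from 0.0501 to 0.105) and with effective lengths as an offset (padj = 0.268). Here too the printed torpor direction is the opposite of the one the labels give. Its effective length ranged from 759 to 2098 bases in LP-NT and from 718 to 1829 bases in SP-HT.

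**Figure D5:**
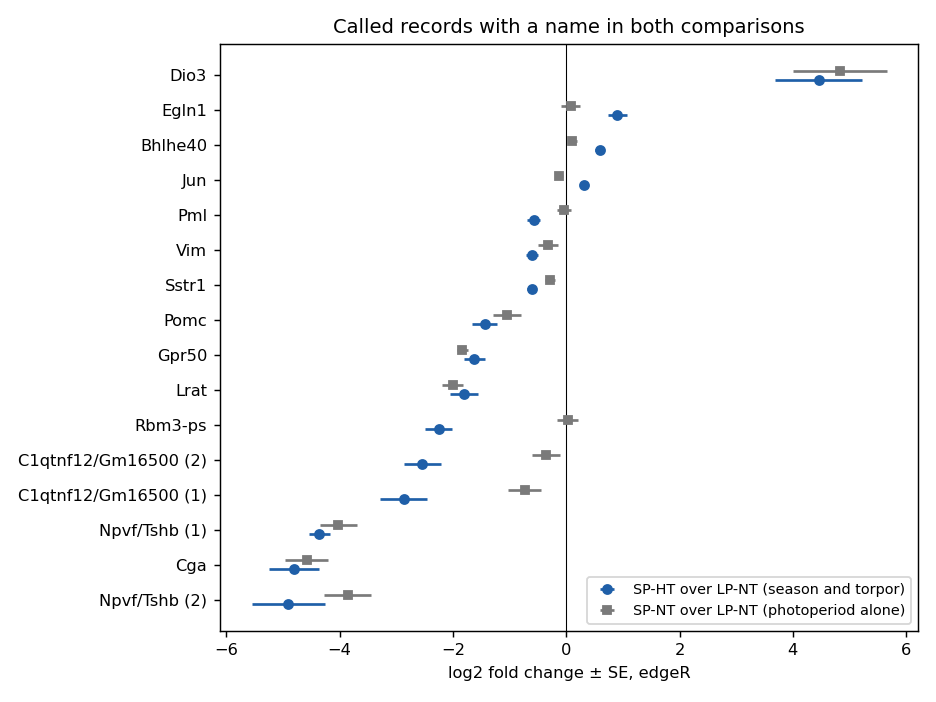
log2 fold change ± SE of the 16 called records with a name in SP-HT over LP-NT (circles) and in SP-NT over LP-NT (squares); both share the LP-NT libraries, and (1) and (2) mark the more and the less abundant record of a pair. Circles and squares lie close for Cga, Gpr50 and Lrat, the squares of Rbm3-ps and Bhlhe40 lie near 0, and Pomc, Sstr1 and Vim have squares between 0 and the circles.

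Vim, vimentin, an intermediate filament protein of tanycytes and other glia, was at 94.8, 124, 108 and 123 CPM in LP-NT and at 68.0, 87.1, 66.9 and 74.3 CPM in SP-HT. SP-NT ranged more widely, from 56.1 to 109 CPM, and overlapped both groups. Vim fell in SP-HT (log2(FC) = -0.60 ± 0.11, padj = 0.0293). The call was kept without LP-NT replicate 01 or SP-HT replicate 10 and lost without each of the other 6 libraries (padj up to 0.104), and in a joint fit of all 12 libraries (padj = 0.0639). The SP-NT difference was -0.32 ± 0.18 (padj = 0.913), and SP-HT and SP-NT differed by -0.28 (padj = 0.408). Of the 3 named tanycyte markers, Vim and Gpr50 were called lower, against 1.02% of all genes tested, and Mct8 gave 0.11 ± 0.10 (padj = 0.635). The list held 7 markers, and those without a name were not analysed here.

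No glucose transporter passed the test. Glut3, the neuronal glucose transporter, was at 111, 98.9, 100.1 and 101 CPM in LP-NT and 73.9, 88.7, 84.6 and 79.99 CPM in SP-HT, without overlap, and just missed the threshold (log2(FC) = -0.32 ± 0.07, padj = 0.0531). DESeq2, limma-voom, the joint fit and the fit with sex as a covariate called it. Against SP-NT, at 95.1 to 100.03 CPM, it passed (log2(FC) = -0.25, padj = 0.0485), but not without SP-NT replicate 19 (padj = 0.113). Glut1, the transporter of brain endothelium and glia, was at 112 to 139 CPM in LP-NT and 135 to 151 CPM in SP-HT (log2(FC) = 0.20 ± 0.07, padj = 0.216). Glut4 gave 0.54 ± 0.32 (padj = 0.464), Glut5 gave -0.37 ± 0.18 (padj = 0.362) and Glut6 gave 0.15 ± 0.10 (padj = 0.527). Avp, which encodes vasopressin, was at 165 to 265 CPM in LP-NT and 81.8 to 191 CPM in SP-HT (log2(FC) = -0.63 ± 0.23, padj = 0.231).

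In all, 16 of the 71 records with a name were called, 4 higher and 12 lower. This is 22.5% against 1.37% of all genes tested, but names were available mainly for genes that the study had singled out, partly on these samples. Among the 60 indicator genes, picked for their biological roles, 8 were called and the median log2(FC) was -0.07. Of the 16, 5 were called for photoperiod as well in edgeR, and the study also called Pomc and Dio3.

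The remaining 205 called records carried no name. None of the 12 largest rises had one, and they ran from 1.60 to 2.63 on the log2 scale, whereas 8 of the 12 largest falls did, running from -1.47 to -6.49. GeneID 56743 had the largest rise among genes of at least 1 CPM in a group. It was at 0.498, 1.26, 1.00 and 0.685 CPM in LP-NT, 6.26, 3.62, 4.65 and 6.81 CPM in SP-HT and 0.734 to 1.25 CPM in SP-NT (log2(FC) = 2.63 ± 0.30, padj = 0.00633). Its effective length averaged 1530 bases in LP-NT and 4904 bases in SP-HT, without overlap. With effective lengths as an offset the log2(FC) was 0.96 and no longer called (padj = 0.136).

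GeneID 258470, the rise with the smallest p among unnamed records, took 3 levels. It was at 5.48, 7.77, 6.65 and 8.31 CPM in LP-NT, 15.5, 11.9, 15.9 and 9.68 CPM in SP-NT and 26.5, 24.1, 19.1 and 22.1 CPM in SP-HT. No group overlapped another. It rose in SP-HT against LP-NT (log2(FC) = 1.71 ± 0.15, padj = 0.00101) and against SP-NT (0.79, padj = 0.0292, or 0.88, padj = 0.0518, without SP-NT replicate 19), whereas the SP-NT step from LP-NT did not pass (0.91 ± 0.18, padj = 0.437).

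GeneID 320683 had the smallest p among unnamed falls and little spread in any group. It was at 28.6, 26.9, 26.8 and 27.6 CPM in LP-NT, 27.1 to 29.9 CPM in SP-NT and 13.2, 15.0, 12.8 and 14.5 CPM in SP-HT. Its level in SP-HT was 1.97-fold below that of LP-NT (log2(FC) = -0.98 ± 0.08, padj = 0.00101), with a SP-NT difference of 0.03 ± 0.07 (padj = 0.951). GeneID 67441 had the largest fall and rested on few counts in SP-HT. It had 330 counts in LP-NT, spread from 0.365 to 9.14 CPM, and 3 counts in SP-HT, a ratio of 0.00927 with an exact 95% counting interval of 0.0019 to 0.0273 (padj = 0.0274). In SP-NT it ranged from 0 to 3.94 CPM, over both groups, and its call was lost without 5 of the 8 libraries (padj up to 0.0998) and with limma-voom (padj = 0.0791). It was also lost with effective lengths as an offset (log2(FC) = -5.22, padj = 0.199) and in DESeq2 with effective lengths (log2(FC) = -0.84, padj = 0.917). Its effective length averaged 3062 bases in LP-NT and 1375 bases in SP-HT. The SP-HT lengths ran from 39.0 to 3590 bases with only 3 counts behind them, so a change of length cannot be read from them.

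The mean effective length differed more than 1.5-fold between SP-HT and LP-NT in 4 of the 221 called records (1.81%) and in 1.47% of all genes tested. With effective lengths as an offset 102 genes were called, 85 of them among the 221. Called records held a median of 5 assembled transcripts, against 7 for all genes tested.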

How the data were processed

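Hypothalamic polyA RNA of 12 hamsters was sequenced by the authors. Per the labels they used FastQC 0.11.9, Trim Galore 0.6.6, Bowtie 1.3.0 and RSEM 1.3.1. All reads were pooled into a de novo assembly annotated with mouse genes (GRCm39), and RSEM's expected counts per mouse GeneID, effective lengths and TPM values were deposited for each hamster. Cross-species annotation can merge related genes in 1 record. TPM values deposited by the authors were not tested. Columns of no sample were not used.

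Expected counts were rounded. Each comparison was fitted on its own 8 libraries for genes with at least 10 counts there, using edgeR 4.0.16 (R 4.3.3, quasi-likelihood, TMM) at a Benjamini-Hochberg adjusted p under 0.05. Standard errors (SE) were taken as log2(FC) over the square root of the F statistic. CPM used TMM over all 12 libraries. The tests were tried on simulated counts first. DESeq2 1.42.0, limma 3.58.1 and other settings were alternatives.

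Names came from the study's printed tables: DESeq2 was run with effective lengths as normalization factors, and a record was named where its adjusted p lay within 0.0006, and its log2(FC) within 0.0051, of those printed (for the most extreme genes within their printed digits, and for Dio3 on log2(FC) alone). The sign of torpor values was ignored, because for all 59 names with a torpor value it was that of SP-NT over SP-HT as the samples are labelled, so directions that separate these groups rest on the labels. The signs of the photoperiod values were used and were those of SP-NT over LP-NT. Genes named were the 12 largest rises and falls without overlap and with at least 1 CPM in a group, the 10 smallest p, and named list members. For unnamed records only the largest change and the smallest p in each direction are printed. The members and gene lists were chosen with earlier results of these data known. Lists without a named record (reproductive axis, cold-inducible proteins, splicing factors, heat shock proteins, sterol synthesis, ribosome, and most cell type markers) were not analysed here.

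Each hamster is a separate animal. Libraries of a group differed by more than sampling noise (chi-square per degree of freedom from 7.01 to 39.2), so none was counted as a duplicate. Two-sided tests were used throughout, and 4 animals a group limit the precision. Intervals cover counting error only.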

Additional observations from a re-analysis of the deposited data

Results flagged for a closer look

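Among 120 sets of 4 libraries, 5 values lay far from the other 3 of their group by Dixon's 95% criterion, which chance alone meets in about 1 of 20 groups. In LP-NT, replicate 01 held 3 of them. Its Bhlhe40 level was 92.0 CPM against 73.9 to 75.2 CPM in the other LP-NT libraries, and without it the Bhlhe40 rise in SP-HT was 0.67 on the log2 scale. Its Glut3 level was 111 CPM against 98.9 to 101 CPM, and without it the Glut3 difference was -0.29 (padj = 0.0698, edgeR). Its Dio3 level was 0.0453 CPM, from 1 count, against 0 in the other 3 libraries. In SP-HT, replicate 26 had 1.88 CPM of Lrat against 0.916 to 1.03 CPM in the other SP-HT hamsters, and without it the Lrat fall was -2.10. In SP-NT, replicate 38 had 2.95 CPM of Glut5 against 3.54 to 3.65 CPM in the other 3 libraries.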

How the results depend on the processing

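Calls in SP-HT against LP-NT numbered 221 (57 higher, 164 lower). They were 706 (243, 463) with DESeq2, 427 (112, 315) with limma-voom, 612 (178, 434) with all 12 samples in one fit, 102 (30, 72) with effective lengths as an offset and, added after seeing the data, 623 (243, 380) with DESeq2 and effective lengths. The share of higher calls, 25.8%, became 39.0% in that last fit. The cause was not tested. Without 1 library at a time, calls ranged from 55 to 200, higher calls from 13 to 51 and lower calls from 38 to 149. Those fits hold 1 sample fewer. The counts stayed within 1.5 times with median-of-ratios size factors (191), no filter (186), filterByExpr (222), sex as a covariate (227) and without LP-NT replicate 01 (200).

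Photoperiod calls, 6, were 33 with DESeq2 and 32 with DESeq2 and effective lengths, and ranged from 5 to 8 without 1 library. Genes called in both comparisons, 6, were 23 and 20 in those fits. The difference in total counts, -433354, ranged from -865377 to 72338 and turned positive without SP-HT replicate 33.

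Added after seeing the data, SP-HT against SP-NT was rerun: its 389 calls became 1017 with DESeq2, 759 with DESeq2 and effective lengths, 242 with sex as a covariate, 146 with effective lengths as an offset and 124 without SP-NT replicate 19. The sex covariate followed the labels, so SP-NT replicate 19 entered as male, although its sex is in doubt.

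The log2(FC) of 40 genes was followed over all settings. Of these fits of a gene, 55 lost a call, 21 gained one and 3 turned direction: Per2 with effective lengths as an offset (0.12) and in DESeq2 with effective lengths (0.12), and Npy without SP-HT replicate 10 (-0.20 to 0.025 with 1 library left out). Other named genes were not followed over all settings. DESeq2 gave no adjusted p for Dio3. No paired analysis was possible because no hamster was sampled in more than 1 group.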
